A study of Mus musculus with 6 samples.

Results

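Non-hepatic glycolytic isoforms are described here in the livers of MASH diet-fed mice labelled wild-type or knockout for *Themis*, which encodes a protein of the T cell receptor pathway. The genes are *Slc2a1*, *Hk1*, *Hk2*, *Hk3*, *Pfkp*, *Aldoa*, *Pgk1*, *Pkm*, *Ldha* and *Slc16a3*. They were chosen by symbol, under a description of isoforms low in healthy adult hepatocytes and raised in injured or proliferating tissue. That description could not be checked here without a healthy liver, and *Ldha* and *Pgk1* were not low in these livers. Earlier results of these data were known when they were chosen, and all 10 were found among the 25403 genes of the count table. Poly(A) RNA of whole liver was sequenced from 3 mice labelled wild-type C57BL6/J (WT) and 3 labelled *Themis* KO, which the study describes as whole-body knockouts. All 6 mice had received, from 10 to 12 weeks of age and for 3 months, a diet with 40% of its energy from fat, 20% from fructose and 2% cholesterol, and the labels include no chow-fed liver. The labels give neither the allele nor the strain background of the *Themis* KO mice, and the deletion is not restricted to a cell type.

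Glycolysis splits glucose into pyruvate, and most of its steps are served by several enzymes encoded by separate genes. Adult hepatocytes use a liver set, with GLUT2 for glucose transport, the liver phosphofructokinase and the liver pyruvate kinase among its members, which suits them to take up or release glucose according to blood levels. Most other cells, and dividing or injured tissue, use the set described here, which runs from the basal glucose transporter GLUT1 through the high-affinity hexokinases to the lactate exporter MCT4. Many genes of this set are known targets of the hypoxia-inducible factors and of MYC.

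The libraries held between 20679642 and 25649767 estimated counts, and 14496 genes passed the filter on low counts, all 10 isoforms among them. Expression is given as CPM, read counts relative to the TMM-scaled library size, always in the order of replicates 1, 2 and 3. The genotypes were tested in edgeR (quasi-likelihood, p-values adjusted after Benjamini and Hochberg over these genes). Of all genes, 721 rose and 600 fell at an adjusted p under 0.05 (9.11% in either direction), against 1447 and 387 under scaling by total counts alone, which moved the median log2 fold change of all genes from 0.0095 to 0.147. *Themis* itself did not separate the labels, with a CPM of 8.07, 25.6 and 12.0 in the WT livers and of 8.62, 7.74 and 9.96 in the *Themis*-KO livers (adjusted p = 0.199). Counts over a whole gene can include reads outside a deleted part, and the labels do not say which part was deleted. Each direction is given as the livers are labelled. WT replicates 1 and 2 also stand apart in the mitochondrial gene *mt-Nd3* and its nuclear copy *Gm28438*, the latter taking 96.6% and 96.8% of their joint counts against 2.20% to 3.26% in the other 4 livers. Among those 4, WT replicate 3 is the only WT liver. Nothing in the labels says which mice were littermates or which libraries were made together.

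Of the 10 isoforms, *Hk2* and *Aldoa* rose in livers labelled *Themis*-KO at an adjusted p under 0.05, where 4.97% of all genes tested were higher. None of the 10 fell at an adjusted p under 0.05 in edgeR, DESeq2 or limma-voom, where 4.14% of all genes were lower in edgeR. In that direction 0 had an unadjusted p under 0.05 in edgeR and limma-voom, and 1 in DESeq2, *Pgk1*. The 2.80-fold rise of *Hk2*, which encodes hexokinase 2, was the only call with a fold change of at least 2. *Pkm*, *Pfkp*, *Slc16a3* and *Hk3* had adjusted p-values between 0.0562 and 0.0675, so that 6 of the 10 passed at 0.1, where 11.5% of all genes were higher and 9.08% lower. Before adjustment 7 of the 10 had a p under 0.05, as had 30.7% of all genes. *Hk1*, *Slc2a1* and *Pgk1* did not pass either threshold, and *Ldha* had nearly the same mean in both groups. The median log2 fold change of the 10 was 0.72, beside 0.0095 over all genes tested, and 8 of the 10 were positive, beside 51.0% of all genes. Since the isoforms were chosen with earlier results of these data known, such comparisons with all genes are descriptions and not tests. In 6 isoforms every liver labelled *Themis*-KO lay above every liver labelled WT, as in 17.7% of all genes tested, and in 1, *Pgk1*, every one lay below, as in 16.9% (34.6% in either direction). In whole liver, a change in the number of cells that express a gene and a change in its RNA per cell cannot be told apart.

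**Figure D1:**
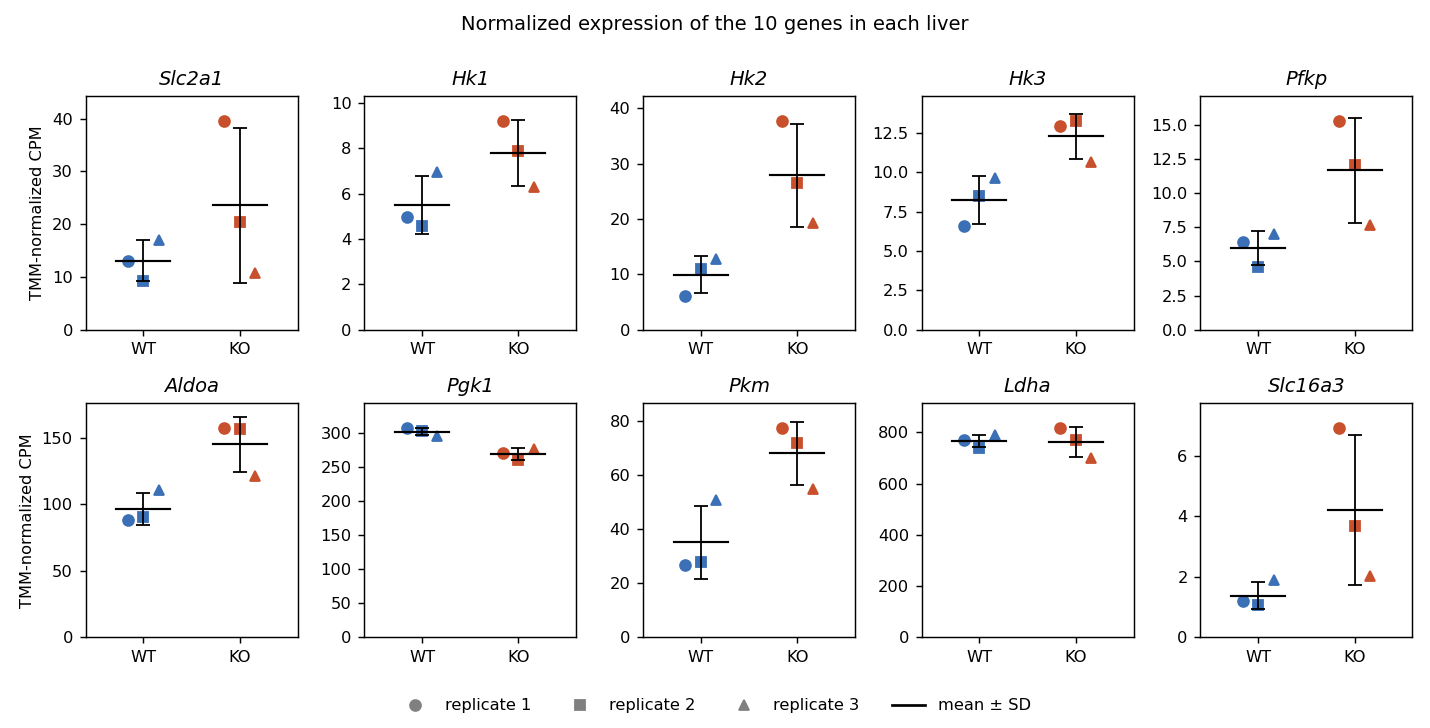
Normalized expression of the 10 isoforms, in TMM-normalized CPM on linear axes that start at 0, for 3 livers labelled WT and 3 labelled *Themis*-KO; marker shapes give the replicate number and black bars the mean ± SD. *Hk2* lies between 19.35 and 37.8 CPM in livers labelled *Themis*-KO and between 6.14 and 12.7 in livers labelled WT, whereas the groups of *Ldha* overlap.

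*Slc2a1* encodes GLUT1, the basal glucose transporter of most cells. Its CPM was 12.9, 9.25 and 17.0 in the WT livers and 39.6, 20.4 and 10.7 in the *Themis*-KO livers. *Themis*-KO replicates 1 and 2 lay above all livers labelled WT, while replicate 3 lay within their range. The log2 fold change of 0.85 (standard error 0.44, adjusted p = 0.225) did not pass, with a 95% interval from -0.16 to 1.86.

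The hexokinases phosphorylate glucose on entry into the cell. *Hk2* is the inducible form that binds mitochondria, and GENCODE places the gene on the reverse strand of GRCm38 at chr6:82725025-82774454. It had a CPM of 6.14, 10.98 and 12.7 in the WT livers and of 37.8, 26.5 and 19.35 in the *Themis*-KO livers. The groups did not overlap, and the lowest liver labelled *Themis*-KO exceeded the highest labelled WT. Its mean was 9.95 ± 3.41 and 27.9 ± 9.30 CPM (SD, n = 3 each), and the fitted log2 fold change was 1.48 (standard error 0.31, adjusted p = 0.0345 from edgeR). *Hk3*, a form known mainly from myeloid cells, had 6.60, 8.49 and 9.62 CPM in livers labelled WT and 12.95, 13.3 and 10.7 in livers labelled *Themis*-KO, in replicate order. These groups did not overlap either, with a log2 fold change of 0.58 (standard error 0.17, adjusted p = 0.0675). *Hk1*, the constitutive form of most tissues and of red blood cells, had 4.95, 4.55 and 6.94 CPM against 9.21, 7.86 and 6.28. Here *Themis*-KO replicate 3 lay below WT replicate 3, and the log2 fold change of 0.50 (standard error 0.21, adjusted p = 0.157) did not pass. The counts behind *Hk1* were small, between 95 and 217 per liver.

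*Pfkp* encodes the platelet-type phosphofructokinase, which catalyses the committed step of glycolysis. Its CPM was 6.42, 4.60 and 7.02 in the WT livers and 15.3, 12.1 and 7.64 in the *Themis*-KO livers. The groups were separated only by the small gap between WT replicate 3 and *Themis*-KO replicate 3, and the log2 fold change was 0.96 (standard error 0.27, adjusted p = 0.0626). *Aldoa* encodes aldolase A, which splits the phosphorylated fructose that phosphofructokinase makes, and lies on the reverse strand at chr7:126795234-126800751. It had 88.1, 90.6 and 111 CPM in livers labelled WT and 157, 157 and 121 in livers labelled *Themis*-KO, with means of 96.5 ± 12.4 and 145 ± 20.8 (SD, n = 3 each). The groups did not overlap, and the 1.504-fold rise passed the test (log2 fold change 0.59, SE 0.14, adjusted p = 0.0411 from edgeR). A second row of the table with the same symbol held 7 counts over all 6 livers and was not used.

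*Pgk1* and *Ldha* were the most abundant of the 10, and neither had a positive log2 fold change. *Pgk1* encodes phosphoglycerate kinase 1, which forms the first ATP of the pathway. Its CPM was 306, 303 and 295 in livers labelled WT and 271, 259 and 276 in livers labelled *Themis*-KO, a log2 fold change of -0.17 (standard error 0.078, adjusted p = 0.191). Reads of *Pgk1* can also be assigned to its near-identical related sequence *Pgk1-rs7*, which held 0% to 6.65% of their joint counts. With both added together, an alternative chosen after the data were seen, the log2 fold change was -0.21 (adjusted p = 0.124). *Ldha* encodes the lactate dehydrogenase subunit that favours lactate formation. It had 769, 740 and 789 CPM in livers labelled WT and 816, 770 and 701 in livers labelled *Themis*-KO. Its log2 fold change of -0.0066 (standard error 0.0935, adjusted p = 0.968) had a 95% interval from -0.22 to 0.21, and the sign turned to 0.13 with scaling by total counts alone.

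*Pkm* encodes the muscle-type pyruvate kinase, as the splice forms PKM1 and PKM2, which counts per gene do not separate. Its CPM was 26.7, 27.6 and 50.7 in the WT livers and 77.1, 71.8 and 54.9 in the *Themis*-KO livers. WT replicate 3 was nearly as high as *Themis*-KO replicate 3, although the groups did not overlap, and the log2 fold change of 0.95 (standard error 0.26, adjusted p = 0.0562) fell short of the threshold. *Slc16a3* encodes MCT4, which exports lactate. It was the least abundant of the 10, with 22 to 163 counts per liver, and its CPM was 1.19, 1.05 and 1.89 in livers labelled WT and 6.92, 3.70 and 2.03 in livers labelled *Themis*-KO. The fitted log2 fold change of 1.599 (standard error 0.46, adjusted p = 0.0645) was the largest of the 10 in this fit, but lay below that of *Hk2* with limma-voom and without WT replicate 2 or *Themis*-KO replicate 1. The groups did not overlap, but *Themis*-KO replicate 3 lay close to WT replicate 3.

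**Figure D2:**
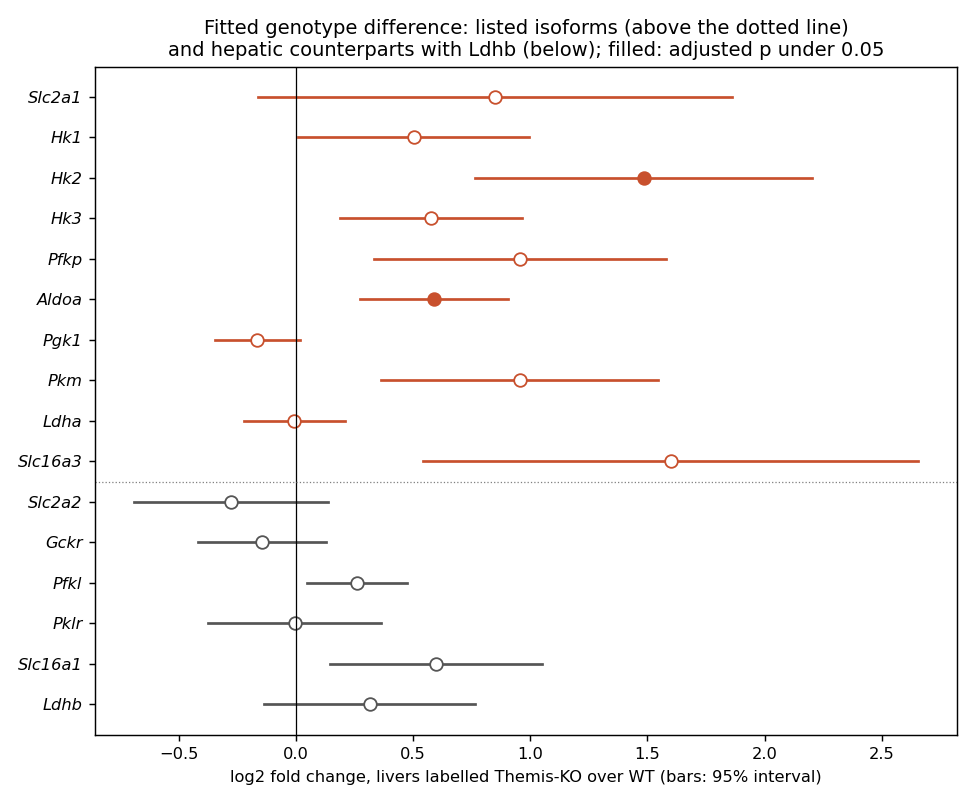
Log2 fold change of livers labelled *Themis*-KO over WT for the 10 isoforms (upper block) and for 5 genes of the hepatic set with *Ldhb* (lower block); points are edgeR estimates, bars their 95% intervals without adjustment for multiple tests, and filled points have an adjusted p under 0.05. *Hk2* at 1.48 and *Aldoa* at 0.59 are the filled points, and 0 genes of the lower block are filled.

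The highest liver labelled WT and the lowest labelled *Themis*-KO were the same for most isoforms. Among livers labelled WT, replicate 3 was the highest for 9 of the 10, and among livers labelled *Themis*-KO, replicate 3 was the lowest for 9 of the 10. The exception was *Pgk1* in both groups. The lowest liver labelled WT varied, with replicate 2 for 5 of the 10, replicate 1 for 4 and replicate 3 for 1. How often these positions held over all genes was not counted, so they cannot be called particular to these isoforms. Among the 4 livers of the *mt-Nd3* type, WT replicate 3 lay below all 3 livers labelled *Themis*-KO for *Hk2*, *Hk3*, *Pfkp*, *Aldoa*, *Pkm* and *Slc16a3* but not for *Hk1*, *Slc2a1* or *Ldha*. For those that lay below, this follows from the lack of overlap given above. It rests on 1 liver labelled WT and is no separate check. With the mitochondrial type as a covariate, 0 of the 10 passed (*Hk2* adjusted p = 0.457, *Aldoa* 0.497), where 0.0% of all genes were higher, with 783 genes higher and 741 lower before adjustment of p. Leaving out either of WT replicates 1 and 2, or either of *Themis*-KO replicates 1 and 2, also left 0 of the 10 (*Hk2* adjusted p from 0.104 to 0.118), where 0.0543% to 0.183% of all genes were higher. Without WT replicate 3, 3 of the 10 passed, where 3.24% of all genes were higher, and without *Themis*-KO replicate 3, 7 passed, where 15.0% were. Over the 6 fits that omit a liver, the log2 fold change of *Hk2* lay between 1.196 and 1.70, whereas that of *Slc2a1* ran from 0.24 to 1.18 and that of *Hk1* from 0.36 to 0.71. Under the mitochondrial covariate it moved from 1.48 to 1.13 for *Hk2*, from 0.59 to 0.39 for *Aldoa*, from 0.95 to 0.42 for *Pkm* and from 0.50 to 0.17 for *Hk1*.

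Levels of different genes were compared as CPM per kilobase of the principal transcript, which allows the name non-hepatic to be checked in these livers. In livers labelled WT, *Ldha* had 434 and *Pgk1* 165 CPM per kilobase, above *Pklr* with 159, so that neither was low in MASH liver. *Aldoa* followed with 63.9 and *Pkm* with 14.4. *Slc2a1* had 4.005, *Hk3* 2.56, *Hk2* 1.80, *Pfkp* 1.45, *Hk1* 1.42 and *Slc16a3* 0.318. These compare with 57.8 for *Slc2a2*, 13.6 for *Pfkl* and 10.3 for *Slc16a1*. *Hk2*, *Pfkp* and *Hk1* differed from each other by less than the spread of *Hk2* between livers. *Pgk1* has no liver-specific counterpart among the genes listed, and *Ldha* made up between 99.0% and 99.5% of the per-kilobase level of *Ldha* and *Ldhb* in every liver. *Slc2a1*, *Pfkp*, *Pkm* and *Slc16a3* thus lay below their hepatic counterparts, whereas the name does not describe *Ldha* and *Pgk1* in these livers. No healthy liver was measured, so that a low level in healthy hepatocytes could not be checked.

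Of the 7 genes of the hepatic set, 5 of which are given here, 0 passed edgeR's test, as did 9.11% of all genes in either direction. At an unadjusted p under 0.05 there were 2, *Pfkl* and *Slc16a1*, beside 30.7% of all genes. Limma-voom called 0 and DESeq2 1, *Slc16a1*, as higher, where limma-voom called 4.23% and DESeq2 8.78% of all genes higher. Without *Themis*-KO replicate 3, *Slc2a2* (-0.51, adjusted p = 0.0240) fell and *Slc16a1* (0.78, adjusted p = 0.00421) rose. In that fit 2228 of 14806 genes were called higher and 2039 lower, so that such calls were common. *Pklr*, for the liver pyruvate kinase, was highest in *Themis*-KO replicate 3, at 581 CPM against 397 to 481 elsewhere (adjusted p = 0.986). The same liver was thus the highest of the 6 for *Pklr* and the lowest labelled *Themis*-KO for *Pkm*. *Slc2a2*, which encodes GLUT2, had a log2 fold change of -0.28 (standard error 0.18, adjusted p = 0.325) and *Gckr* of -0.14 (SE 0.12, adjusted p = 0.431). *Pfkl*, the liver phosphofructokinase, had 0.26 (SE 0.092, adjusted p = 0.105) and *Slc16a1*, which encodes the lactate transporter MCT1, 0.60 (SE 0.20, adjusted p = 0.089).

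Ratios of counts within a library do not depend on its scaling, and 7 were compared between groups, 5 of which are given here, using exact permutation (two-sided), which for 3 livers against 3 cannot give a p below 0.1. The log2 ratio of *Slc16a3* to *Slc16a1* was -5.07 ± 0.26 in livers labelled WT and -4.17 ± 0.51 in livers labelled *Themis*-KO (SD, n = 3 each; exact p = 0.1, 0.35 adjusted over the 7 ratios), and only here did the groups not overlap. For *Pkm* to *Pklr* it was -3.78 ± 0.62 and -2.75 ± 0.57 (SD, n = 3 each; exact p = 0.2, adjusted 0.35). *Themis*-KO replicate 3 lay within the WT range for *Pkm* to *Pklr*, *Slc2a1* to *Slc2a2* and *Pfkp* to *Pfkl*, and the differences of the group means were 0.99 and 0.66 for the latter ratios (exact p = 0.3 for each). For *Ldha* to *Ldhb* the difference was -0.32 (exact p = 0.2). None of these passed, in a design that could not bring any of them below 0.1.

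**Figure D3:**
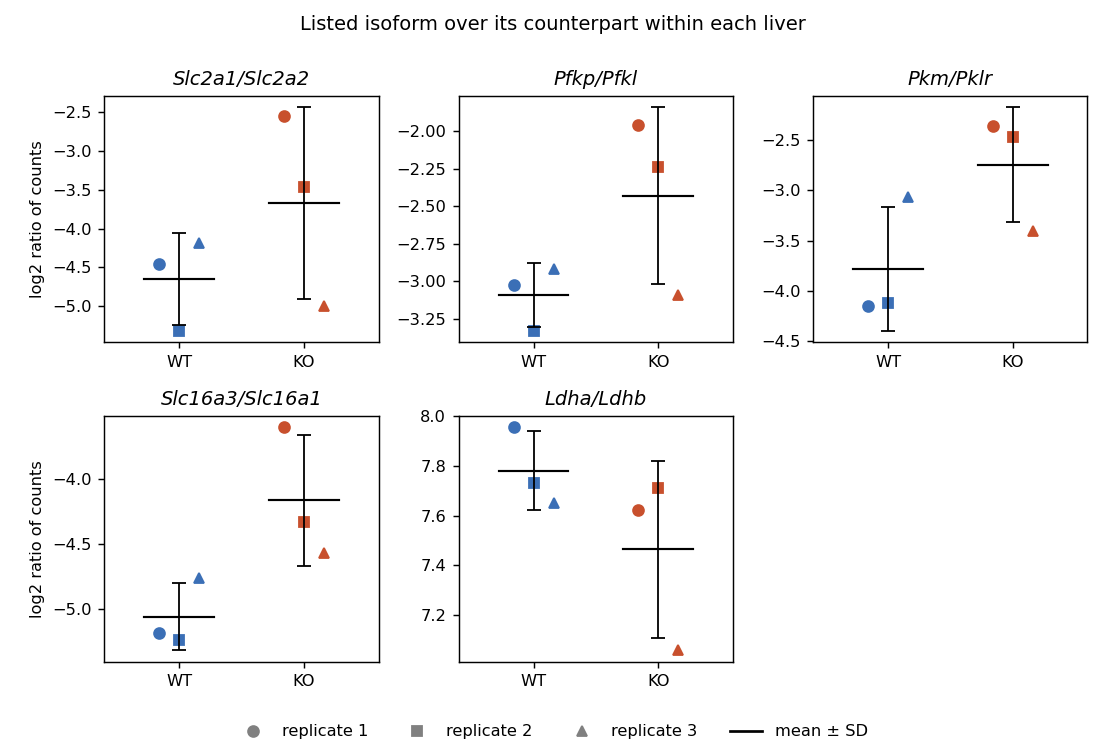
Log2 ratio of the counts of each listed isoform to its counterpart in the 6 livers, on a scale of its own for each of 5 ratios; marker shapes give the replicate number and black bars the mean ± SD. *Themis*-KO replicates 1 and 2 lie above the livers labelled WT in 4 of the ratios, and in 3 of these 4 *Themis*-KO replicate 3 lies among the livers labelled WT.

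Of 16 other genes of glycolysis, 15 were tested, 1 rose and none fell, by DESeq2 as by edgeR, while limma-voom called 0, and their median log2 fold change was 0.105. Over all genes tested, 4.97% were higher and 4.14% lower in edgeR. The gene that rose was *Hkdc1*, with 0.53 to 0.60 CPM in livers labelled WT and 3.14, 2.02 and 1.13 in livers labelled *Themis*-KO (log2 fold change 1.91, SE 0.40, adjusted p = 0.0351 in edgeR and 0.0520 in limma-voom). It rested on 11 to 74 counts per liver.

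Of 21 regulators of the pathway, 2 rose and 1 fell, beside 4.97% and 4.14% of all genes, with a median log2 fold change of 0.211. *Pfkfb3* and *Pfkfb4* encode bifunctional enzymes that make the main allosteric activator of phosphofructokinase. *Pfkfb3* had 29.0, 28.1 and 26.9 CPM in livers labelled WT and 42.1, 44.65 and 46.3 in livers labelled *Themis*-KO (log2 fold change 0.66, SE 0.081, adjusted p = 0.0112). Its values were close within each group, unlike those of *Hk2*, and *Themis*-KO replicate 3 was the highest. *Pfkfb4* rose with a log2 fold change of 1.09 (standard error 0.24, adjusted p = 0.0389). The gene that fell was *Pdk2*, a kinase that inhibits pyruvate dehydrogenase, with -0.53 (SE 0.12, adjusted p = 0.0396). Its paralog *Pdk4*, a fasting-induced gene, had 13.7, 10.98 and 21.7 CPM against 149, 85.2 and 17.2 (adjusted p = 0.0596), so that *Themis*-KO replicate 3 again lay in the WT range. Neither *Hif1a*, for the hypoxia-inducible factor subunit (0.28, SE 0.12, adjusted p = 0.167), nor *Myc* (0.59, SE 0.50, adjusted p = 0.452) passed, and *Ptbp1*, whose product favours the PKM2 splice form, had 0.50 (SE 0.20, adjusted p = 0.140).

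Of 12 further genes known to respond to hypoxia, 11 were tested. Of these, 2 rose and 1 fell, beside 4.97% and 4.14% of all genes, with a median log2 fold change of 0.491. *Adm*, for the vasodilator adrenomedullin, rose with a log2 fold change of 1.14 (standard error 0.20, adjusted p = 0.0241) and *Ndrg1* with 0.83 (SE 0.20, adjusted p = 0.0464), whereas *Bnip3*, a mitophagy receptor, fell with -0.37 (SE 0.076, adjusted p = 0.0339). *Vegfa*, the endothelial growth factor, had -0.31 (SE 0.10, adjusted p = 0.085). In the pentose phosphate pathway, which branches off at the product of the hexokinases, 2 of 7 genes rose, beside 4.97% of all genes. They were *Rpia* with 0.97 (SE 0.18, adjusted p = 0.0255) and *Pgd* with 0.63 (SE 0.13, adjusted p = 0.0345). None fell in edgeR, DESeq2 or limma-voom, and the median log2 fold change was 0.274.

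Hypoxia-inducible factors bind the core ACGTG or GCGTG. Both were searched on both strands in the 250 bases before each RefSeq start site in GRCm38.p6, where all 10 genes matched by symbol and had 15 windows. ACGTG overlaps the E-box CACGTG bound by MYC. ACGTG stood in 9 of the 15 windows, beside 16.6% of 32851 windows of the same length over all genes, and GCGTG in 4, beside 28.2%. The windows over all genes were not matched for GC content, which was 47.2% to 73.6% in the 15 windows, so these shares are not like for like. The windows of a gene can overlap, and 2 of the 9, both of *Aldoa*, hold the same match. A match is a description of letters and was not linked to binding. The windows of the isoforms with the largest fitted rises, *Hk2* and *Slc16a3*, are printed beside those of *Ldha* and *Pgk1*, which did not rise, since both pairs hold ACGTG, with capitals for each match on either strand. The *Hk2* window lies on the reverse strand at chr6:82774455-82774704, that of *Slc16a3* on the forward strand at chr11:120948817-120949066, that of *Ldha*, the first of its 2 windows, on the forward strand at chr7:46845554-46845803, and that of *Pgk1* on the forward strand at chrX:106186850-106187099.
Hk2: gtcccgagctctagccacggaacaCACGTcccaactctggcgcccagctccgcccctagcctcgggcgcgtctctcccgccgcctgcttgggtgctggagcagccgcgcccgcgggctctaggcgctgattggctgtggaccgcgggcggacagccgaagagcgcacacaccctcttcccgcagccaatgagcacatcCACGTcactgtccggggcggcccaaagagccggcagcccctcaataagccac
Slc16a3: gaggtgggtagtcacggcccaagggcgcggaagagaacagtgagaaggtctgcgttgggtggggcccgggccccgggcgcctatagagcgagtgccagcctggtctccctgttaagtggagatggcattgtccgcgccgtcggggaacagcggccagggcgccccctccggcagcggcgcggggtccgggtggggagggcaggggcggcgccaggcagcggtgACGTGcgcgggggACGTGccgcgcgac
Ldha: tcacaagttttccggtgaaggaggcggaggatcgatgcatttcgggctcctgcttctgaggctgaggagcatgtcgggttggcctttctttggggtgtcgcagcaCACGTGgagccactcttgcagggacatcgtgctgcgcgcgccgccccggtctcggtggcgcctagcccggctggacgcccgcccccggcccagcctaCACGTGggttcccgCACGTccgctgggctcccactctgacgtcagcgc
Pgk1: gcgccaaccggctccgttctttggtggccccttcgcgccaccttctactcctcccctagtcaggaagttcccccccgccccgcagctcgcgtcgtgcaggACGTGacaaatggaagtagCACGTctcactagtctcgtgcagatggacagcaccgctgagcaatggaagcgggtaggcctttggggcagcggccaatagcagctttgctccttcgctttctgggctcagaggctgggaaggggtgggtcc
In these windows ACGTG matched 2 times for *Hk2*, 2 for *Slc16a3*, 5 for *Ldha* and 2 for *Pgk1*, counting both strands, so that each of the 2 E-boxes of *Ldha* counts on either strand. These windows were picked by fold change, and a link between the matches and a change in RNA was not tested.

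Among markers of other cell types, several passed in the macrophage and stellate cell lists and at most 1 in the cholangiocyte, endothelial, neutrophil, T cell, B cell and erythroid lists. Over all genes tested, edgeR called 4.97% higher and 4.14% lower, and 30.7% had an unadjusted p under 0.05. These shares stand beside each count of markers here and in the next paragraph. Of 12 macrophage markers, 5 rose, *Cd68*, *Mpeg1*, *Trem2*, *Gpnmb* and *Itgax*, and none fell in edgeR, DESeq2 or limma-voom. Of the 12, 11 had a positive log2 fold change and 1, *Marco*, a negative one (-1.29, SE 0.71, adjusted p = 0.248 in edgeR). *Clec4f* had 0.14 and *Vsig4* 0.22, and neither passed. *Gpnmb* had a log2 fold change of 1.97 (standard error 0.31, adjusted p = 0.0194), *Trem2* of 1.49 (SE 0.27, adjusted p = 0.0255), *Itgax* of 1.34 (SE 0.31, adjusted p = 0.0401) and *Cd68* of 1.06 (SE 0.23, adjusted p = 0.0369). The summed CPM of the list was 468, 475 and 749 in the WT livers and 784, 968 and 756.5 in the *Themis*-KO livers, so that replicate 3 of either group lay close to the other, as for *Pkm*. Of 5 neutrophil markers tested, 0 passed in edgeR and 1 in DESeq2, and all 5 had a positive log2 fold change and an unadjusted p under 0.05, with *Mmp9* at 1.21 (SE 0.34, adjusted p = 0.0646) and *Csf3r* at 0.98 (SE 0.36, adjusted p = 0.113). Their summed CPM was 6.28 to 10.96 and 8.73 to 25.8. Of 10 markers of hepatic stellate cells (HSCs), 6 rose, among them *Col1a1* (1.15, SE 0.20, adjusted p = 0.0248) and *Col1a2* (1.00, SE 0.11, adjusted p = 0.00936), and the summed CPM was 393 to 445 against 594 to 658. The markers that did not pass were *Des* (0.22), *Lrat* (0.12), *Reln* (0.053) and *Acta2* (0.84). Of 7 cholangiocyte markers, 1 rose, *Spp1* (1.44, SE 0.20, adjusted p = 0.0131), which macrophages and injured hepatocytes also express, and most of the sum, 167 to 207 against 398 to 628 CPM, was *Spp1*.

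Of 6 genes of disease-associated hepatocytes, which the study named from single-nucleus profiles and not from these libraries, 5 rose, namely *Nrg1*, *Anxa2*, *Sox4*, *Klf6* and *Jun*, with a summed CPM of 132.5 to 227 and 334 to 618. *Nrg1* had a log2 fold change of 2.95 (standard error 0.56, adjusted p = 0.0291), *Klf6* of 1.94 (SE 0.38, adjusted p = 0.0304), *Anxa2* of 1.59 (SE 0.22, adjusted p = 0.0131) and *Sox4* of 1.34 (SE 0.28, adjusted p = 0.0351). *Themis*-KO replicate 3 had the lowest sum of its group, as it did for the macrophage, neutrophil and stellate cell lists. It had the highest sum of its group for the proliferation, hepatocyte, endothelial, B cell and erythroid lists. This order thus does not single out any 1 cell type. Of 10 hepatocyte markers, 3 fell, with *Cyp2e1* at -1.07 (SE 0.21, adjusted p = 0.0304), and the summed CPM was 61760 to 64930 against 47420 to 53370. The defining hepatocyte gene *Alb* was the most abundant of all markers in every liver. Of 7 proliferation genes, 2 rose, *Mki67* and *Ccna2* (1.02, SE 0.23, adjusted p = 0.0386), with 43.0 to 52.7 and 63.7 to 65.1 CPM in sum. Of 7 endothelial markers, 1 rose, *Lyve1* (0.86, SE 0.12, adjusted p = 0.0131), with *Pecam1* at 0.27 (SE 0.092, adjusted p = 0.0958), and the sums were 193 to 211 and 215 to 239 CPM. Of these 7, 5 had a positive log2 fold change and 2 a negative one, *Kdr* (-0.13) and *Clec4g* (-0.17), which did not pass. Of 5 T cell markers tested, 1 fell, *Cd4* (-1.46, SE 0.32, adjusted p = 0.0386), with list sums of 3.98 to 5.52 and 3.09 to 7.30. Among the 5, 3 had a positive log2 fold change and 2 a negative one. *Cd8a* had the largest, 1.38 (SE 0.61, adjusted p = 0.167 in edgeR), and did not pass. Of 5 B cell markers 0 passed in edgeR, DESeq2 or limma-voom or at an unadjusted p under 0.05. *Pax5* had -0.63 and *Ms4a1* -0.31, with list sums of 3.07 to 7.29 and 1.98 to 5.804. Among 5 erythroid genes tested *Alas2* fell with -0.49 (SE 0.11, adjusted p = 0.0409) and *Hba-a1* had 0.31, with sums of 261 to 292 and 212 to 323 CPM. Of skeletal muscle, in which *Aldoa* and *Pkm* are abundant, 6 markers were listed, 4 were in the table and 0 passed the filter on low counts, and their sum never exceeded 0.679 CPM. In none of these lists was a marker in the table at 0 in all 6 livers. The part of macrophages, HSCs, disease-associated hepatocytes or dividing cells in the rise of *Hk2* and *Aldoa* was not tested.

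The number of isoforms called also depended on the tool and on the filter. DESeq2 called 6 of the 10 isoforms, *Hk2*, *Aldoa*, *Hk3*, *Pfkp*, *Pkm* and *Slc16a3*, where it called 8.78% of all genes higher. The same 6 passed in edgeR without a filter on low counts, where 4.77% of all genes were higher. With total counts alone 5 passed, all but *Slc16a3* of these 6 (9.98% of all genes higher), and with limma-voom *Hk2*, *Aldoa* and *Pkm* (4.23%). *Hk2* and *Aldoa* alone passed with RLE scaling (4.77%), upper quartile scaling (4.89%) and a minimum of 10 counts in every liver (5.6%). *Hk1*, *Slc2a1*, *Ldha* and *Pgk1* passed in none of these fits.

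**Figure D4:**
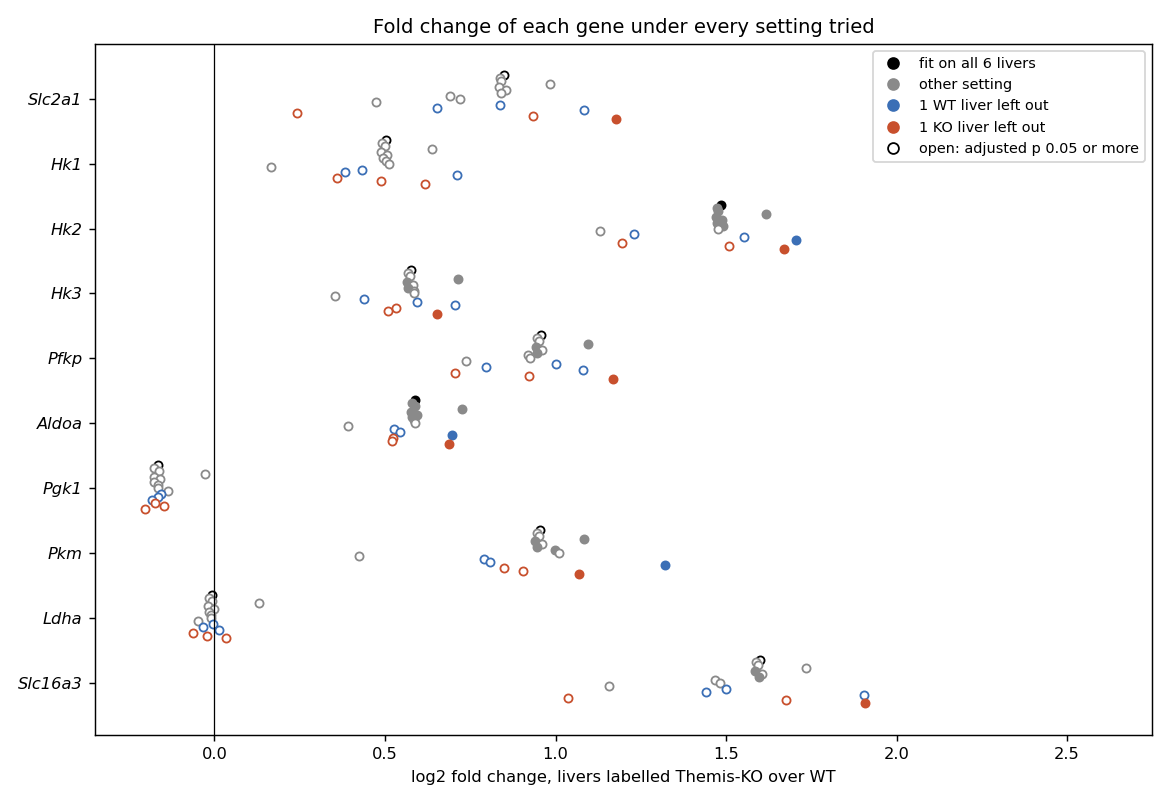
Log2 fold change of each of the 10 isoforms under the edgeR fit on all 6 livers (black), under the 9 other settings of scaling, filter, tool, block or covariate (grey) and with 1 liver labelled WT (blue) or *Themis*-KO (red) left out; filled points have an adjusted p under 0.05. *Hk2* stays between 1.13 and 1.70, and the points of *Ldha* lie on both sides of 0.

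Some reads of the isoforms may belong to overlapping genes, since the counting is not stated to use strand. *Pfkp* shares exonic sequence with *Pitrm1* on the opposite strand, which had 6610 counts over all livers against 1218 for *Pfkp*, and *Hk3* shares some with *Unc5a* on the opposite strand, with 353 against 1405. On the same strand as *Pkm*, *Gm49759* overlaps it, with 509 counts against 7095.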

How the data were processed

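The authors trimmed reads with cutadapt 2.3, aligned them with STAR 2.7.8a to GRCm38 and estimated counts with RSEM 1.3.3, per the labels and the study's methods. The authors deposited these expected counts as whole numbers, unnormalized, with 1 column per liver. The annotation release and the strand setting are not given in the sources used here. Genes were filtered with filterByExpr, scaled by TMM and tested with edgeR 4.0.16 (quasi-likelihood F test, no covariate, Benjamini-Hochberg adjustment over all genes tested) in R 4.3.3. Scripts were tested on simulated data. Ratios used counts plus 0.5 and exact permutation tests (scipy 1.17.1). Lengths are those of the longest principal transcript in GENCODE vM21, in which 25321 of 25403 gene IDs were found.

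The isoforms and lists were chosen with earlier results of these data known. Named genes are the 10 isoforms, the 7 hepatic counterparts (2 of which, with the results that need them, are not reported here), *Ldhb* and, from each other list, genes with an adjusted p under 0.05 and a fold of at least 2, or else the 2 with the smallest p. *Pfkfb3*, *Pdk2*, *Pdk4*, *Hif1a*, *Myc*, *Ptbp1*, *Ndrg1*, *Bnip3*, *Vegfa*, *Mpeg1*, *Marco*, *Clec4f*, *Vsig4*, *Alb*, *Jun* and *Mki67* were named after their values were seen. So were *Cd8a*, *Kdr*, *Clec4g*, *Des*, *Lrat*, *Reln* and *Acta2*. Alternatives were RLE, upper quartile or total count scaling, other filters, DESeq2 1.42.0, limma-voom 3.58.1, the replicate number as a block, the mitochondrial type as a covariate, and each liver left out. No 2 libraries of the same group agreed within sampling noise, and libraries of different groups were not compared in this way. The authors' comparisons were not used.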

Additional observations from a re-analysis of the deposited data

How the results depend on the processing

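Of the 10 isoforms, 2 were called higher with RLE or upper quartile scaling or at least 10 counts in every liver, 3 with limma-voom, 5 with total counts alone, 6 without a filter, 6 with DESeq2, 6 at an adjusted p under 0.1 and 1 with a fold of at least 2. With the replicate block or the mitochondrial covariate it was 0, and with each liver left out 0 to 7. Over the 5 pathway lists, 7 genes were higher and 2 lower, against 14 and 0 with total counts alone, 11 higher without a filter, 12 and 4 with DESeq2, 0 and 0 with the block or the covariate, and 0 to 16 and 0 to 11 with each liver left out. Over all genes, 721 were higher and 600 lower, against 1447 and 387 with total counts alone, 1212 and 967 without a filter, 1273 and 1084 with DESeq2, 17 and 45 with the block, 0 and 3 with the covariate, and 8 to 2228 and 12 to 2039 with each liver left out. At an unadjusted p under 0.05 the block gave 1949 higher and 1496 lower and the covariate 783 and 741.

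*Hk2* no longer passed with the block (log2 fold change 1.48) or the covariate (1.13), nor did *Aldoa* (0.59 and 0.39). *Hk3* passed with total counts alone (0.71), without a filter (0.56) and with DESeq2 (0.57), as did *Pkm* (1.08, 0.94 and 0.95, and 1.00 with limma-voom) and *Pfkp* (1.10, 0.94 and 0.95), and *Slc16a3* passed without a filter (1.58) and with DESeq2 (1.596). *Ldha* turned to 0.13 with total counts alone. The cause of these changes was not tested.

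With each liver left out in turn, log2 fold changes ranged from 1.196 to 1.70 for *Hk2*, 0.52 to 0.70 for *Aldoa*, 0.44 to 0.70 for *Hk3*, 0.79 to 1.32 for *Pkm*, 0.71 to 1.17 for *Pfkp*, 1.04 to 1.91 for *Slc16a3*, 0.24 to 1.18 for *Slc2a1* and -0.063 to 0.035 for *Ldha*, which was 0.013 without WT replicate 3 and 0.035 without *Themis*-KO replicate 3. Same-numbered livers did not deviate together (correlations across genes of 0.00028, -0.24 and -0.16), so the numbers were not taken to pair the livers. The largest correlations joined WT replicate 2 with *Themis*-KO replicate 3 (0.28), WT 1 with *Themis*-KO 2 (0.17) and WT 3 with *Themis*-KO 1 (0.14). Each deviation was taken from a mean of only 3 livers, so this check cannot exclude a pairing. The study speaks of 3 pairs without saying what paired them. The block ended both calls (adjusted p = 0.1002 for *Hk2* and 0.120 for *Aldoa* in edgeR), which was not read as a weaker effect. Of the 10 isoforms, *Slc16a3* and *Hk1* had the fewest counts, which limits their precision.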
